A study of Mus musculus with 6 samples.

Results

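The introns described here are the introns shorter than 200 bases in the retained intron table that the authors made with rMATS, a program that compares alternative splicing between groups of libraries. Introns were chosen by length alone, taken as the distance between the end of the upstream exon and the start of the downstream exon. This gave 1289 of the 3047 introns in the table, or 42.3%, in 951 genes. RNA had been sequenced from the tibialis anterior, a shin muscle of mostly fast fibres, in 3 control and 3 knockout libraries. All mice carried 1 HSA-Cre transgene (HSA-Cre Tg/+), in which the human skeletal actin promoter drives Cre recombinase in muscle fibres. Controls were Acin1 +/+ and knockouts were Acin1 F/F, so that deletion is limited to cells in which the transgene is active while the whole muscle also holds other cells. In such bulk tissue, fewer cells of a type and less RNA per cell cannot be told apart. Strain, sex and age are not in the labels, and nothing there ties a library to its own animal. The p-values below therefore refer to libraries, and part of the variation among these may be technical. Those for introns rest mostly on a spread estimated across introns, with little weight on the intron's own spread among libraries.

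Introns are removed from pre-mRNA by the spliceosome, which recognises the splice sites at both ends and the branch point. When an intron is short, the machinery often recognises the intron itself as a unit, and when removal fails the intron stays in the RNA as a retained intron. A kept intron often carries an early stop codon, which can hold the RNA in the nucleus or mark it for nonsense-mediated decay, whereas an intron with an open frame can add amino acids to the protein. Acinus, the product of Acin1, binds RNA in the nucleus and joins RNPS1 and SAP18 in the ASAP complex, a partner of the exon junction complex in splicing.

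The sequences of 7 introns carry the clearest changes between the groups, since each kept its call in every fit that left out 1 library. They were read 5′ to 3′ from annotated transcripts that keep the intron (GENCODE M21, build GRCm38, coordinates of that build). Capitals mark the first and last 2 bases of the intron, where the splice sites lie.
Fxr1, chr3:34058082-34058168, plus strand: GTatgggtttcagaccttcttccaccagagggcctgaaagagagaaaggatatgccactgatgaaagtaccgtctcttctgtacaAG
Mief2, chr11:60730436-60730629, plus strand: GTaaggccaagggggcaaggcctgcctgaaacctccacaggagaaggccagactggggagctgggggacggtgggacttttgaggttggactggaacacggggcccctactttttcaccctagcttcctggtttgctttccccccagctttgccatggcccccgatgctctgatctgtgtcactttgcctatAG
Map7d1, chr4:126237060-126237155, minus strand: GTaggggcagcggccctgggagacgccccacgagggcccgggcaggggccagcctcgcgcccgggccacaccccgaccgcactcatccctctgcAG
Dmpk, chr7:19092037-19092207, plus strand: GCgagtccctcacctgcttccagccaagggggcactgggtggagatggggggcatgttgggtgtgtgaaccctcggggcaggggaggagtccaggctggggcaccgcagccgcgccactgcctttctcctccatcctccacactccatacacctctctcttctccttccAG
Hnrnpm, chr17:33666530-33666646, minus strand: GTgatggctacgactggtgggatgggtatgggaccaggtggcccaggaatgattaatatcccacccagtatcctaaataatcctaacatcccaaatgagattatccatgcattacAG
Slc38a3, chr9:107656271-107656455, minus strand: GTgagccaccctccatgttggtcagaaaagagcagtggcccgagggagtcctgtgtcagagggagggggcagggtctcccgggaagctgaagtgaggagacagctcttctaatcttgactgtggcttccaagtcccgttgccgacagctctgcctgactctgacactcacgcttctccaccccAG
Rab24, chr13:55320554-55320744, minus strand: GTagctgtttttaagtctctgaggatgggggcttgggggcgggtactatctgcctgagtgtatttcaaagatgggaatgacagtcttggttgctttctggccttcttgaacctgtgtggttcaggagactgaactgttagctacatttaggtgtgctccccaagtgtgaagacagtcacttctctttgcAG
Of these introns, 6 began with GT and ended with AG, the usual splice site bases, and the Dmpk intron began with GC. The Fxr1, Map7d1 and Hnrnpm introns held no stop codon in the reading frame and had lengths that are multiples of 3, so a transcript that keeps them stays in frame. The Mief2, Dmpk, Slc38a3 and Rab24 introns brought an in-frame stop codon.

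Reads in listed genes numbered between 21084522 and 29301125 per library. Scaled reads of Acin1, normalised by the authors for library size, were 1513, 1559 and 1413 in control replicates 1, 2 and 3 and 1196, 1196 and 1195 in knockout replicates 5, 7 and 8, a log2 change of -0.32 ± 0.07 (SE, limma adjusted p = 0.0266). On leaving out control replicate 1, 2 or 3 or knockout replicate 7 the adjusted p of Acin1 lay between 0.0587 and 0.0973. All 8 fibre markers were detected, with summed levels of 86100 to 90700 CPM in control and 85800 to 89700 CPM in knockout libraries. Summed endothelial markers (4 of 4 listed) ran from 256 to 313 CPM in control and from 185 to 253 CPM in knockout libraries. Smooth muscle markers (3 of 3) ran from 102 to 117 and from 79.9 to 97.5 CPM, and Schwann cell markers (3 of 3) from 35.3 to 53.5 and from 24.7 to 29.7 CPM. Fibroblast markers (3 of 3) overlapped between the groups, at 309 to 772 and 197 to 493 CPM, and macrophage markers (4 of 4) at 11.1 to 19.9 and 9.94 to 27.4 CPM. Satellite cell (1 of 1) and adipocyte (2 of 2) markers summed to at most 2.29 and 4.96 CPM, and neither neutrophil marker was listed. The part of these cell types in the results was not tested.

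The shortest intron had 26 bases, and the quartiles of length were 82 and 139 bases. A total of 213 genes held 2 or more of them, and the noncoding host gene Gas5 held 9. Retention was estimated from reads that cross an exon-intron boundary against reads that join both exons, each divided by its effective length. Together the short introns held 163646 to 211120 junction reads per control library and 215341 to 259989 per knockout library. Libraries of a group are numbered in the order of the splicing table, which does not tie them to replicate numbers. To be tested, an intron needed a mean of at least 20 junction reads per library, and 741 of the 1289, in 559 genes, passed. Just inside the length limit, the 3 longest tested introns had mean control retention of 9.61 to 29.9%. The 5 tested rows just outside it, at most 1 base over the limit, had 6.84 to 35.6%.

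The median retention of the tested short introns was 11.2, 11.2 and 11.1% in the control and 10.2, 10.8 and 11.2% in the knockout libraries. The groups overlapped. For the 890 tested introns of 200 bases and more the medians were 12.5 to 13% in control and 13.2 to 14% in knockout libraries. Most short introns were spliced out of most transcripts. Mean retention was below 10% in 339 introns, between 10 and 50% in 275, between 50 and 90% in 59 and at 90% or more in 68. The median difference, knockout minus control, was -0.0805 percentage points in short introns, and 589 of 741 differed by no more than 5 points.

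**Figure D1:**
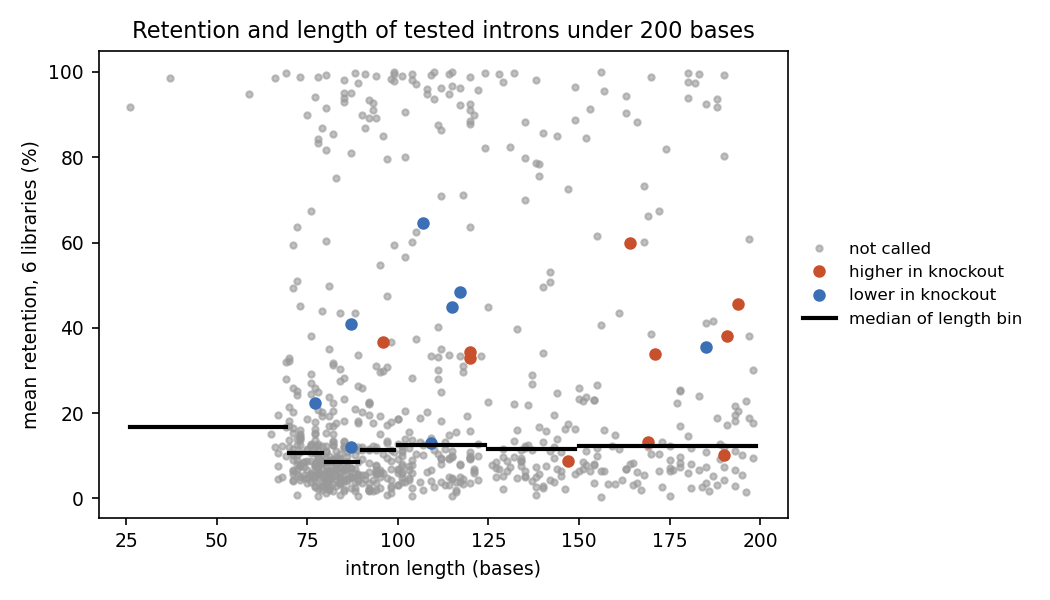
Mean retention over 6 libraries (%) against intron length (bases) for the 741 tested introns under 200 bases, with black lines at the median of each length bin. Introns near 0 and near 100% occur at most lengths, and the called introns (orange higher, blue lower in knockout) lie between 8.72 and 64.6%.

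Retention of 18 short introns changed between the groups, 10 upwards and 8 downwards, in a quasi-binomial model of the reads with Benjamini-Hochberg adjustment over all 1631 tested introns of the table. The share called was 2.43% of short introns, beside 2.45% of all tested introns. Upwards calls made up 1.59% of the whole table and 1.35% of short introns, and downwards calls 0.858% and 1.08%. Control and knockout libraries did not overlap for 99 short introns (13.4%), beside 13.9% of all tested introns. In 43 of them the knockout libraries were higher and in 56 lower, beside 118 (7.23%) and 109 (6.68%) of all 1631 tested introns. The share called and the share without overlap were near those of all tested introns. Among introns without overlap, falls outnumbered rises in short introns and rises outnumbered falls in the whole table, a contrast that was not tested. At an unadjusted p under 0.05 there were 80 short introns, and 12% of all tested introns. The count of 18 fell to 9 without control library 1 and to 10 without knockout library 3, and limma on unweighted log2 odds called 0 (57 at an unadjusted p under 0.05).

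**Figure D2:**
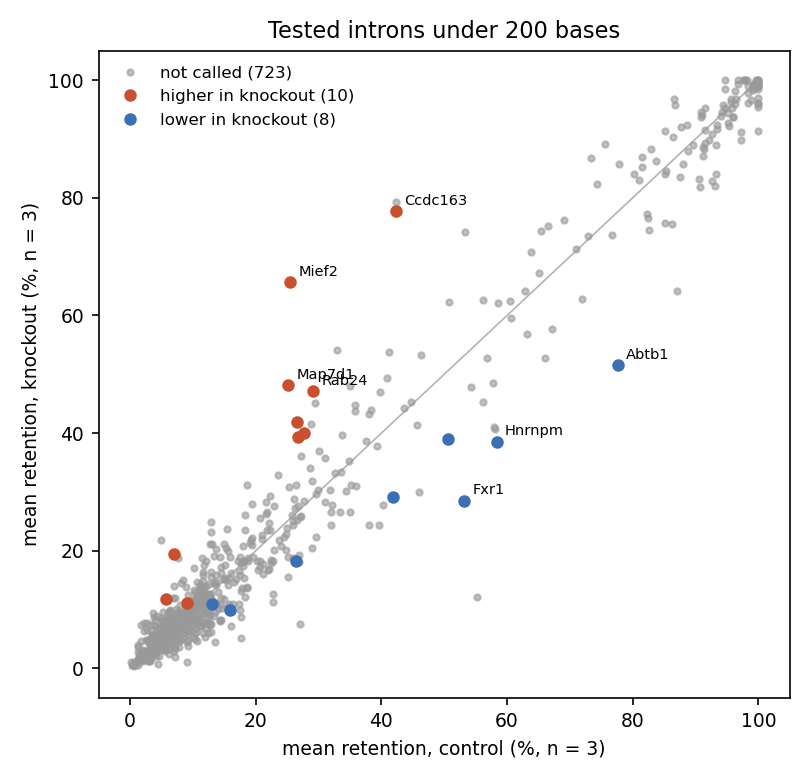
Mean retention (%) in the 3 knockout libraries against that in the 3 control libraries for each tested intron under 200 bases, with the line of equality. Grey points are the 723 introns that were not called, and the 10 higher (orange) and 8 lower (blue) introns are spread on both sides of the line.

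Mief2 gave the largest rise. It encodes a receptor of the mitochondrial outer membrane that recruits the fission enzyme Drp1, and its intron of 194 bases lies between coding exons (chr11:60621262-60621455, plus strand, GRCm39, as are the coordinates that follow). Retention was 24.4, 25.6 and 26.5% in the control and 60.2, 65.3 and 71.6% in the knockout libraries. The groups lay far apart, with every knockout library above every control library. Means were 25.5 ± 1.08% and 65.7 ± 5.73% (SD, n = 3 each). The log2 odds of retention rose by 2.49 ± 0.20 (SE, adjusted p = 2.46e-29). Reads across the intron's boundaries numbered 57 to 75 per control library and 248 to 354 per knockout library. Reads joining the exons numbered 79 to 109 and 59 to 94. RNA spliced at an inner site of this intron, described near the end, also gives reads across its downstream boundary. The boundary reads therefore need not all come from RNA that keeps the whole intron. Scaled reads of the Mief2 gene also rose, from 1935 ± 174 to 2984 ± 109 (SD), a log2 change of 0.63 ± 0.08 (SE, limma adjusted p = 0.00515).

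A second gene for a mitochondrial outer membrane protein, Rhot2, encodes a GTPase that links mitochondria to motor proteins. Its intron of 147 bases (chr17:26059082-26059228, minus strand) was retained at 7.73, 5.60 and 3.79% in the control and 10.7, 9.44 and 15.1% in the knockout libraries. All knockout libraries were above all control libraries, though by a narrow margin. The log2 odds rose by 0.997 ± 0.275 (SE, adjusted p = 0.0150). That call was lost without control library 2 or 3 or knockout library 3, where the difference was 4.37 to 5.98 points and the adjusted p 0.0917 to 0.216. The 4 other tested short introns of Rhot2 were not called, with differences from -0.13 to 6.15 points. Scaled reads of the gene fell by 0.48 on the log2 scale (limma adjusted p = 0.0361), a call lost without control replicate 1, 2 or 3 or knockout replicate 7 (adjusted p 0.0711 to 0.116).

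Dmpk, the kinase whose gene carries the repeat expansion of myotonic dystrophy, held a called intron that begins with GC. This intron of 171 bases (chr7:18825962-18826132, plus strand) was retained at 30.04, 30.8 and 22.4% in the control and 39.5, 40.9 and 39.6% in the knockout libraries. Control library 3 was lower than the other controls, and the groups did not overlap. The log2 odds rose by 0.78 ± 0.11 (SE, adjusted p = 5.25e-10). It was 1 of only 11 GC-AG introns among the 1236 short introns with a sequence. Within its last 20 bases, leaving out the AG, every base was a pyrimidine, against a median of 77.8% over all short introns. Scaled reads of Dmpk rose from 8613 ± 640 to 11536 ± 177 (SD), a log2 change of 0.42 (limma adjusted p = 0.0166), which was lost without control replicate 1 or 2 or knockout replicate 7 (adjusted p 0.0538 to 0.0613).

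Map7d1, a microtubule-associated protein, had a rise in an intron that transcripts can translate. The intron of 96 bases (chr4:126130853-126130948, minus strand) was retained at 24.8, 28.2 and 22.6% in the control and 46.2, 48.7 and 49.5% in the knockout libraries. The libraries of each group lay close together and the groups were well apart. The log2 odds rose by 1.44 ± 0.19 (SE, adjusted p = 3.05e-11). The annotated transcript that keeps it is protein-coding, and its 32 codons hold no stop. GC content was 78.1%, against a median of 56.6% over all short introns, as the printed sequence shows.

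Rab24, a small GTPase linked to autophagy, held an intron of 191 bases (chr13:55468367-55468557, minus strand). Its retention was 26.0, 31.3 and 30.2% in the control and 47.6, 47.3 and 46.5% in the knockout libraries. No library of one group came near the other group. The log2 odds rose by 1.12 ± 0.22 (SE, adjusted p = 9.74e-05). Scaled reads of the gene were 461 ± 20.6 and 463 ± 18.7 (SD), a log2 change of 0.01 that was not called (limma adjusted p = 0.973).

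The remaining rises rested on fewer reads or on values that lay closer together. Ccdc163, a gene for a coiled-coil protein, held an intron of 164 bases (chr4:116566471-116566634, plus strand) retained at 46.3, 52.0 and 28.6% in the control and 69.2, 88.2 and 75.6% in the knockout libraries. With a mean of 27.3 junction reads per library it was the least covered of the called introns (adjusted p = 0.0282), and the call was lost on leaving out any library other than knockout library 1 (difference 28.5 to 40.2 points, adjusted p 0.0610 to 0.289). Mlxipl, the glucose-responsive transcription factor also called ChREBP, held an intron of 120 bases (chr5:135162728-135162847, plus strand) at 18.6, 30.6 and 31.1% in the control and 39.1, 35.3 and 43.4% in the knockout libraries. Control library 1 was the low value there, and the call (adjusted p = 0.0382) was lost without control library 1 or knockout library 1 or 3, with a difference of 8.45 to 12.6 points and an adjusted p of 0.112 to 0.541.

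Tnfaip2, a TNF-induced gene, held an intron of 169 bases (chr12:111414804-111414972, plus strand) at 6.25, 4.26 and 10.6% in the control and 20.8, 16.03 and 21.5% in the knockout libraries. The groups did not overlap (adjusted p = 0.0208), and the call was lost without control library 1 or 2 or knockout library 3 (11.03 to 12.03 points, adjusted p 0.157 to 0.251). Galt, an enzyme of galactose breakdown, held a called intron of 120 bases whose groups overlapped, so that it fell outside the rule for named introns. It was at 20, 23.4 and 36.4% in the control and 34.8, 38.5 and 52.5% in the knockout libraries (adjusted p = 0.00574). Galt was not called without control library 1 or 2 or knockout library 3 (10.1 to 13.8 points, adjusted p 0.0814 to 0.271).

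Among the falls, Fxr1 had the smallest p of the whole table. It encodes an RNA-binding protein of the fragile X family with muscle isoforms, and its intron of 87 bases (chr3:34112231-34112317, plus strand) is kept in protein-coding transcripts and adds 29 codons. Retention was 49.8, 55.1 and 54.8% in the control and 28.9, 26.4 and 30.2% in the knockout libraries. Every control library kept it in about as many transcripts as it removed it from, and every knockout library removed it more often. Means were 53.2 ± 3.01% and 28.5 ± 1.94% (SD, n = 3 each). The log2 odds fell by 1.49 ± 0.10 (SE, adjusted p = 1.67e-36). Scaled reads of the gene were 6993 ± 167 and 8218 ± 669 (SD) and were not called (limma adjusted p = 0.101).

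Hnrnpm, an RNA-binding protein that regulates splicing, held an intron of 117 bases (chr17:33885504-33885620, minus strand), also kept in a protein-coding transcript and also open, with 39 codons. Retention was 54.7, 61.3 and 59.0% in the control and 39.5, 41.8 and 34.4% in the knockout libraries. All knockout libraries lay below all controls, and the log2 odds fell by 1.15 ± 0.21 (SE, adjusted p = 2.64e-05). The log2 change of the gene was 0.07 and was not called (limma adjusted p = 0.589).

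Slc38a3, a glutamine transporter, held an intron of 185 bases (chr9:107533470-107533654, minus strand) retained at 43.6, 42.8 and 39.0% in the control and 34.7, 25.1 and 27.4% in the knockout libraries. Knockout library 1 was the closest to the controls, and the groups did not overlap. The log2 odds fell by 0.81 ± 0.15 (SE, adjusted p = 2.69e-05). Another intron of the gene, of 117 bases, was at 96.3 and 96.0% in the 2 groups, and one of 204 bases at 58.1 and 64.8%, neither called.

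Abtb1, named for its ankyrin repeats and BTB domain, had the largest called fall in points. Its intron of 107 bases (chr6:88817748-88817854, minus strand) was at 79.2, 79.5 and 74.4% in the control and 48.1, 54.1 and 52.4% in the knockout libraries. The groups were far apart, but with a mean of 42.8 junction reads per library the call (adjusted p = 0.0445) was lost on leaving out any 1 of the 6 libraries, where the difference was -27.8 to -24.5 points and the adjusted p 0.0911 to 0.264. Tmem52, a transmembrane protein, held an intron (chr4:155553804-155553918, plus strand) at 49.8, 50.7 and 51.4% in the control and 38.5, 35.2 and 43.5% in the knockout libraries. The controls were almost equal and the knockouts all lower (adjusted p = 0.0100), a call lost without knockout library 1 or 2 (-11.3 to -9.60 points, adjusted p 0.0564 to 0.148).

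Smaller falls were called in Polr2i and Cuta. Polr2i, a subunit of RNA polymerase II, held an intron of 77 bases (chr7:29931830-29931906, plus strand) at 25.4, 26.0 and 27.8% in the control and 16.6, 17.1 and 21.1% in the knockout libraries (adjusted p = 0.0272). That of Cuta, of 109 bases (chr17:27157592-27157700, minus strand), was at 17.99, 13.6 and 16.1% in the control and 10.5, 9.28 and 9.77% in the knockout libraries (adjusted p = 0.0287). In neither intron did the groups overlap. Polr2i lost its call on leaving out any 1 control library or knockout library 1 or 2 (-8.64 to -7.32 points, adjusted p 0.0867 to 0.153). Cuta was not called without control library 1 or 3 or knockout library 2 or 3 (-6.01 to -5.00 points, adjusted p 0.0859 to 0.334).

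**Figure D3:**
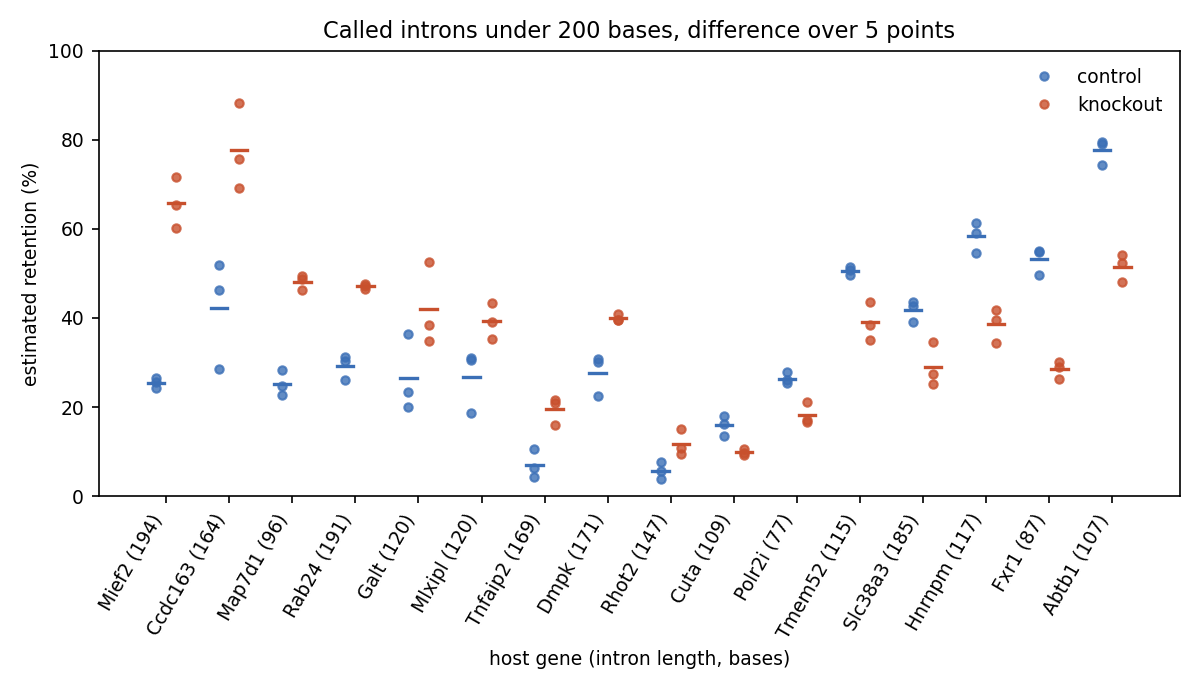
Estimated retention (%) of the 16 called introns that differed by over 5 points in each control (blue) and knockout (orange) library, with short lines at the group means, ordered by the difference. The groups overlap in Galt and in no other intron shown, with differences from 40.2 points in Mief2 to -26.1 points in Abtb1.

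Another 23 introns of any length were tested in 11 of the 18 host genes, and 0 were called by the quasi-binomial model, beside 2.45% of all tested introns, so that a count of 0 among 23 is near that share. The 6 called introns of Abtb1, Cuta, Galt, Mlxipl, Tmem52 and Tnfaip2 shared 1 splice site with another intron of the table. They were 33.3% of the 18 called, beside 17.4% of all tested short introns. These introns and their neighbours are not separate stretches of RNA. In Abtb1 a 72-base intron inside the called one, with the same downstream splice site, was at 9.026% in control and 9.003% in knockout means. RNA spliced at the inner site also gives reads across the upstream boundary of the called 107-base intron. The fall in Abtb1 therefore cannot be read as a loss of RNA that keeps the whole 107-base intron. In Mlxipl, introns of 73 and 80 bases with the same upstream splice site were at 97.8 and 91.5% in control and at 100 and 91.5% in knockout means. In Tmem52 the intron of 97 bases with the same upstream site was at 82.5 and 76.6%, a difference of -5.94 points that was not called (adjusted p = 0.482). In Cuta the intron of 77 bases with the same upstream site was at 97.2 and 91.2%. That difference of -6.00 points was not called (quasi-binomial adjusted p = 0.685). In Mlxipl, Tmem52 and Cuta, RNA spliced at an inner site also gives reads across the downstream boundary of the called intron. Differences of these introns from the called ones were not tested.

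**Figure D4:**
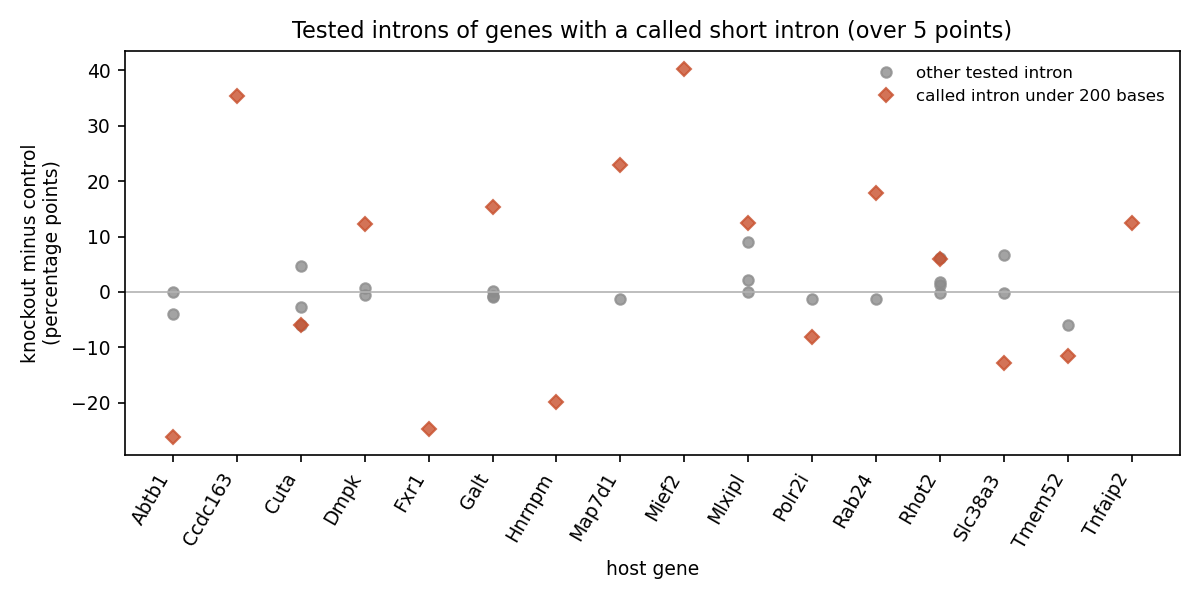
Difference of mean retention (knockout minus control, percentage points) of each tested intron in the host genes of the 16 called introns that differed by over 5 points. Diamonds are these introns, and circles are the 23 other introns, of which 0 were called.

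A small class of short introns had an estimated retention of at least 90%. Annotated protein-coding transcripts keep most of those with a keeping transcript. The estimate counts only the intron's own junction against it, so splicing at another site within or around the intron is not counted. A high value therefore need not mean that nearly all transcripts keep the intron. In Mlxipl, the 73-base intron at 97.8% in control lies inside the 120-base intron at 26.7%. By annotation, 41 of the 57 introns with at least 90% retention that had an annotated transcript keeping them (71.9%) were kept by a protein-coding transcript, against 22 of 333 (6.61%) of those below 10%. In-frame stop codons were found in 11 of 36 (30.6%) of the first class with a frame and 237 of 326 (72.7%) of the second. Open frames of a length that is a multiple of 3 made up 33.3 and 6.13%. Introns with at least 90% retention also shared a splice site with another intron of the table more often by count, in 27 of 68 (39.7%), against 41 of 339 (12.1%) below 10%. These shares are descriptions, and introns of 1 gene are not independent.

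**Figure D5:**
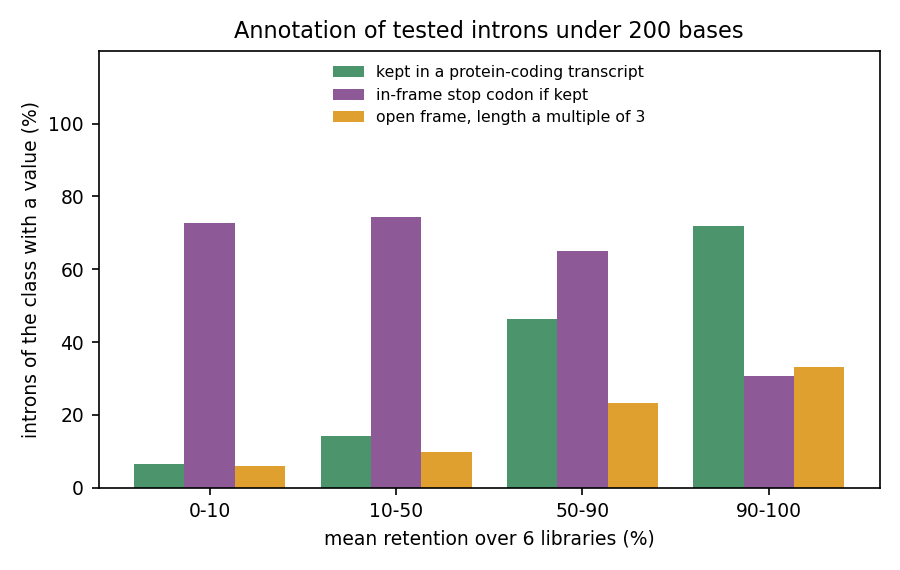
Share (%) of tested introns under 200 bases kept by an annotated protein-coding transcript, with an in-frame stop codon if kept, and with an open frame whose length is a multiple of 3, by class of mean retention. From the lowest to the highest class, the first share runs from 6.61 to 71.9% and the stop codon share from 72.7 to 30.6%.

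Of the introns with at least 100 junction reads per library, the 6 with the highest retention lay in Ttn, Bsg, Tacc2, Dbndd2, H19 and Fastk. The 156-base intron of Ttn, the giant spring protein of the sarcomere (chr2:76538953-76539108, minus strand), had 9332 to 10910 inclusion reads per control library and 9291 to 11020 per knockout library. It had 0, 0 and 2 skipping reads in the control and 0 in all knockout libraries, so retention was between 99.96 and 100% in every library. Bsg, a glycoprotein partner of lactate transporters, held an intron at 99.90% or more in every library. In H19, a long noncoding RNA of fetal muscle, a 132-base intron was at 99.6 to 100% while its inclusion reads ran from 484 to 600 in the control and from 836 to 4818 in the knockout libraries. The introns of Tacc2, Dbndd2 and Fastk, of 110, 99 and 69 bases, had 0 or 1 skipping read in every library. None of the 6 was called.

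The shortest tested introns were unlike most spliceosomal introns in size. The 26-base intron of Xbp1 (chr11:5474278-5474303, plus strand) is cut out in the cytoplasm by IRE1 in the unfolded protein response, which lets the active factor be made. It was kept at 95.7, 90.7 and 91.3% in the control and 91.0, 92.4 and 89.2% in the knockout libraries. These overlapped, and the log2 odds change of -0.33 ± 0.71 (SE, adjusted p = 0.925) was within error, with only 2 to 5 skipping reads per library. A 37-base GC-AG intron of the chaperone gene Hsp90ab1 was kept at 98.2 to 98.4% in the control and 98.7 to 99.3% in the knockout libraries (adjusted p = 0.344), and a 59-base intron of Pacsin2, a membrane-bending protein, at 93.7 to 98.8% and 91.9 to 95.7% (adjusted p = 0.701).

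In sequence, short introns were richer in G and C than the longer introns of the same table, with a median of 56.6% against 48.7%. By their ends, 1223 of 1236 were GT-AG and 11 GC-AG. They began with GTGAG in 33.5% and with GTAAG in 17.2%, against 25.5 and 21.5% of longer introns. If kept, 71.4% of short introns with a frame would bring an in-frame stop codon, against 97% of longer ones. Median lengths were 101 and 571 bases, and a longer sequence has more codons in which a stop can occur. These shares were not adjusted for length. The called introns did not form a single type: of the 10 higher, 7 brought a stop and 2 were open with a length divisible by 3, and of the 7 lower with a frame, 5 and 2.

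Splicing factors themselves held few short retained introns. From lists of factors, 1 of 9 genes of the ASAP, PSAP and exon junction complex, 3 of 7 CLK and SRPK kinases, 1 of 16 intron recognition factors, 2 of 8 genes of nuclear RNA retention and decay and 1 of 20 sarcomere and calcium genes held any, and the lists of 12 SR proteins, 10 minor spliceosome factors and 10 nonsense-mediated decay factors held 0. Of the 12 tested, 0 were called by the quasi-binomial model, beside 2.45% of all tested introns, and a count of 0 among 12 is near that share. Closest was a 191-base intron of Clk4, a kinase of SR proteins. It was at 10.1, 14.7 and 14.5% in the control and 19.4, 24.1 and 19.8% in the knockout libraries. Those groups did not overlap, but the adjusted p was 0.106. Introns of Clk1 (7.48 ± 2.78% and 6.68 ± 1.19%), Srpk3 (20.2 ± 0.69% and 18.2 ± 3.26%) and Rbm8a (3.89 ± 1.18% and 3.26 ± 1.66%) overlapped between groups (control and knockout means with SD), as did those of Tpr (7.42 ± 0.90% and 4.48 ± 2.82%) and Nxf1 (11.6 ± 7.07% and 6.10 ± 2.89%). U2af1l4, a U2AF small subunit relative, held 5 introns from 4.12 to 99.1% in mean retention.

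At the gene level, 16 of 92 list members were called by limma, 10 higher and 6 lower, and over all genes 11.3% were called. That count fell to 1 without control replicate 1 or 2 and to 3 without control replicate 3 or knockout replicate 7, and was 10 with voom. Higher were Pnn, a partner of RNPS1 (log2 change 0.30), the SR-like factor Srsf11 (0.34), Clk3 (0.43), the U1 proteins Snrnp70 (0.51) and Snrpa (0.45), the minor spliceosome factors Scnm1 (0.57) and Rnpc3 (0.42), Smg9 (0.41), the poly(A)-binding Pabpn1 (0.44) and the export receptor Nxf1 (0.32). Among the lower were Acin1, Srsf5 (-0.35), Clk4 (-0.39), Clk1 (-0.32) and the branch point binding factor Sf1 (-0.30). Adjusted p-values of the 16 called genes by limma ran from 0.00649 to 0.0487. Of the 558 measured host genes of tested short introns, 63 were higher and 28 lower, or 16.3%. Over all 14619 genes, 839 were higher and 806 lower, or 11.3%. Host genes entered only if an intron had a mean of at least 20 junction reads per library, and the contrast with all genes was not tested. Among the hosts of called introns, Mief2, Dmpk and Galt were higher and Rhot2 was lower, so level and retention rose together in Mief2, Dmpk and Galt and moved apart in Rhot2. Galt (log2 change 0.38, limma adjusted p = 0.0365) was not called without control replicate 1, 2 or 3 or knockout replicate 7 (adjusted p 0.0625 to 0.116).

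The authors' own test gave a partly different list. In the authors' deposited table, 45 of the 1289 short introns had an FDR under 0.05, and 3.48% of all rows did. Among these were 22 of the tested short introns, beside 3.37% of all tested introns in the authors' deposited table. Both tests called 14 of them. Of the 4 introns called here alone, those of Mlxipl and Galt had FDRs of 0.0592 and 0.0668 in the authors' deposited table. The 8 called there alone were in Abcb6, Thoc1, Pnpla7, Gm32261, Dapk3, Akap8l, Sec24c and Hax1. Of these, a 197-base intron of Thoc1, a subunit of the THO complex that couples transcription to mRNA export, was at 42.3 ± 9.09% in control and 79.3 ± 20.04% in knockout libraries (SD, quasi-binomial adjusted p = 0.0744), on a mean of 22.8 junction reads. A further 23 short introns with a deposited FDR under 0.05 in the authors' deposited table had too few reads to be tested here. The largest difference that was not called among the tested short introns was a 114-base intron of Gdpd3, at 55.2 ± 40.9% and 12.2 ± 4.18%, where the control libraries themselves differed widely (adjusted p = 0.0724).

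CASH, a second splicing program run by the authors, gave its own reads for 14 of the 18 called introns. In the authors' deposited table of CASH, all 14 moved the same way as here, and 1, the Fxr1 intron, had an FDR under 0.05, beside 0.0546% of all CASH intron retention events. Its control column equalled the summed reads of the 3 control libraries for 219 of 1267 introns, while its knockout column equalled the first 2 of the 3 knockout libraries for 308 of 1267 and all 3 for 0. For Map7d1 the inclusion share in the authors' deposited table was 37.7% in control and 62.1% in knockout (FDR 0.0951), and for Dmpk 41.2 and 55.7% (FDR 0.0932). These are the same libraries, so the direction is a second reading of the same RNA.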

How the data were processed

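RNA was measured in 3 control and 3 knockout libraries of tibialis anterior, grouped by the genotype label. According to the submitters' processing notes, the build was GRCm39 and the tools included STAR 2.7.9a, RSEM 1.3.3, Trimmomatic 0.39 and FastQC 12.0, without settings. Per the file headers, the authors' rMATS table joins the inclusion and skipping read counts of 3 libraries in each cell, with a p-value and FDR per intron. Sample 1 was read as control because its skipping reads equal the CASH control column more often (219 of 1267 introns, against 24 for sample 2). The deposited gene table holds log2 values, which are log2 of scaled reads plus 4. The deposited CASH table gives reads pooled over libraries, with a score, the change of inclusion (control minus knockout), and its p-value and FDR.

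The planned edgeR test was not run, nor was DESeq2, although the joined cells were split into counts per library. Inclusion reads out of all junction reads were instead fitted per intron with a quasi-binomial model (1 mean per group, dispersion moderated towards a trend with limma's squeezeVar and not below 1, two-sided F test, Benjamini-Hochberg over 1631 introns, threshold 0.05). The mean prior degrees of freedom were 404, so an intron's own spread had little weight and a call can rest on overlapping groups. On simulated retained introns (1631, of which 200 changed), the test recovered 25% of 2-fold and 56% of 3-fold odds changes, with 3.57% false calls, and limma on unweighted log odds recovered 0%. The simulation gave every intron the same overdispersion between libraries. It therefore does not show the share of false calls where the spread differs from intron to intron. Genes were fitted with limma 3.58.1 (mean-variance trend) in R 4.3.3. All 6 libraries were counted, as chi-square values divided by their degrees of freedom were 1.31 to 1.48 between replicates, above sampling noise.

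Intron structure and sequence came from GENCODE M21 (GRCm38), matched by gene, strand and the lengths of intron and exons, for 1253 of 1289 introns, of which 1236 had a sequence. Coordinates in GRCm39 are those of the files. Markers were summed as CPM of reads recovered from the deposited log2 values (100% whole within 0.001). Named introns were called ones without overlap between groups, the 6 highest in retention, the 3 shortest and those of listed genes. Members, lists and tests were chosen with earlier results of these data known. Thoc1, Gdpd3 and Galt were named after their values were seen. A few of the called introns and genes are not reported here by name. Shares in CASH have exact binomial 95% intervals, which cover counting error only. Python 3.11.15, pandas 2.3.3, scipy 1.17.1 and matplotlib 3.10.9 were used.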

Additional observations from a re-analysis of the deposited data

Results flagged for a closer look

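In the authors' deposited CASH table, 4 of 3713 short introns had an FDR under 0.05 (15 at an unadjusted p under 0.05), beside 5 of all 9163 intron retention events (0.0546%). Of the 4, 3 are not rows of the retained intron table and entered no comparison above. They stand out as signals in data outside the main measurement. The 126-base intron of Dusp13, a phosphatase gene of muscle and testis (chr14:21783765-21783890), had 1627 inclusion and 46 exclusion reads in control and 700 and 239 in knockout, a share of 97.3% (exact binomial 95% interval 96.3 to 98.0%) and 74.5% (71.6 to 77.3%). A 29-base interval of Klhl33, a kelch-like gene (chr14:51126321-51126349), had 590 and 0 reads in control, a share of 100% (99.4 to 100%), and 65 and 103 in knockout, a share of 38.7% (31.3 to 46.5%). The 147-base intron of Mief2 (chr11:60621262-60621408) had 142 inclusion and 55 exclusion reads in control and 578 and 34 in knockout. Its share was 72.1% (65.3 to 78.2%) in control and 94.4% (92.3 to 96.1%) in knockout. It starts at the same base as the 194-base intron of Mief2 and ends 47 bases earlier, at an ag of the printed sequence. The pooled reads have no replicate check, and the knockout column holds 2 of the 3 libraries by its reads.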

How the results depend on the processing

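No paired analysis was possible because control replicates are numbered 1, 2 and 3 and knockout replicates 5, 7 and 8. Of the 18 called short introns, 7 (Mief2, Map7d1, Rab24, Dmpk, Fxr1, Hnrnpm and Slc38a3) lost their call only with limma on unweighted log2 odds, which called 0 short introns (57 at an unadjusted p under 0.05) and 0 in the whole table (147 unadjusted). Of 268 comparisons of the 18 with another setting, 188 kept the call, 80 lost it and 0 reversed. These include read shares without effective lengths, which reuse the p-values of the main fit. They also include 1 row per distinct intron, which tests the same 1631 introns. Both settings were bound to keep all 18 calls. The setting with the authors' deposited FDR takes its sign from the main fit and could not reverse. Requiring 50 reads gave 11 short and 22 of all introns, beside 18 and 40. Leaving out 1 library gave 9 to 14 short and 23 to 34 of all introns. Among 19 named introns that were not called, the sign changed in 5 of 284 such comparisons, and 0 became called. Read shares and 1 row per distinct intron are counted there too and could not have made an intron called. The level over short introns moved with the filter: mean library medians were 12.5 and 12.2% (control and knockout) at 10 reads, 9.14 and 8.82% at 50 reads, 14.1 and 14.2% with no filter, and 19.4 and 18.5% as read shares without effective lengths. Calls in the gene lists numbered 1 to 13 without 1 library and 10 with limma-voom, chosen after seeing the data, beside 16. Called introns had a median of 178 (higher) and 242 (lower) junction reads per library and the others 58.8. The cause of these dependences was not tested. The edgeR and DESeq2 alternatives were not run.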
